A study of Mus musculus with 22 samples.

Results

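Genes for enzymes that remove methyl groups from lysines of histone H3 were followed in mouse preimplantation embryos with and without depletion of the histone variant H2A.Z. The 10 genes were Kdm1a, Kdm1b, Kdm5a, Kdm5b, Kdm4a, Kdm4b, Kdm4c, Kdm6b, Kdm2b and Kdm3a, chosen by name, with earlier results of these data known, from the demethylases of H3K4, H3K9, H3K27 and H3K36, of which they are a part, and each was found by its symbol in the table of gene expression, which held 55335 genes. The study depleted H2A.Z with siRNA and sequenced polyA RNA by Smart-seq2, a protocol for very small inputs, from pools of 15 embryos. There were 22 libraries in 6 groups: 4 control and 3 knockdown (KD) libraries of 2-cell embryos, 4 control and 3 KD libraries of morulae, and 4 control and 4 KD libraries of blastocysts. The embryos came from superovulated B6D2F1 females, 8 weeks old, crossed with males of the same kind, and the stages were collected 43 to 44 h (2-cell), 78 h (morula) and 94 h (blastocyst) after hCG, the hormone given to trigger ovulation. KD embryos had received about 10 pL of a mixture of siRNAs against H2A.Z at 20 μM as zygotes, 20 to 22 h after hCG. The study names control embryos without injection for its quantitative PCR. Whether the control embryos of these libraries were injected is not given in the sources used here, so an effect of injection and an effect of the siRNAs cannot be told apart. Each library pools whole embryos, so fewer cells of a type and less RNA per cell cannot be told apart either. The study reports that KD lowered blastocyst formation and that KD embryos arrested at the morula stage. How the embryos of the KD blastocyst libraries were picked is not given in the sources used here. For these libraries a delay or selection of embryos and a direct effect of KD on a gene cannot be told apart.

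Methylated lysines on histone H3 mark promoters and silent chromatin, and demethylases make these marks reversible. The LSD enzymes KDM1A and KDM1B oxidise mono- and dimethylated lysine with FAD, whereas the JmjC enzymes, to which all the others belong, use iron, oxygen and 2-oxoglutarate and can also act on trimethylated lysine. After fertilization the maternal RNA store is replaced by transcripts of the embryo, and H3K4, H3K9 and H3K27 methylation are remodelled over the same cleavage divisions.

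Expression is given as FPKM, in which the fragments of a gene are divided by transcript length and by the mapped fragments of the library, so levels of different genes can be compared. No read totals were used here. Relative depth, in arbitrary units, was taken as the inverse of the most common low value of FPKM times length over 13491 single-exon genes. This depth ran from 18.0 to 27.3 in the 2-cell controls and from 20.8 to 27.1 in the 2-cell KD libraries. It ranged from 20.8 to 28.7 in control morulae, 20.1 to 28.0 in KD morulae, 14.8 to 22.1 in control blastocysts and 17.2 to 21.2 in KD blastocysts. The KD and control ranges overlapped at each stage, and the lowest depth was that of a control blastocyst library, replicate 4.

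The knockdown target checked the labels. H2afz, the gene for H2A.Z.1, stood at 1244, 1236, 905 and 1178 FPKM in the 2-cell controls and at 415, 139 and 112 FPKM in the 2-cell KD libraries. In morulae it stood at 1158, 1336, 1511 and 1421 FPKM in controls and 30.3, 25.7 and 29.0 FPKM after KD, and in blastocysts at 2656, 2431, 1945 and 2055 FPKM against 64.2, 67.2, 53.2 and 57.6 FPKM. Every KD library lay below every control library of its stage, and 2-cell KD replicate 1 kept the most H2afz transcript of the KD libraries. KD against control, the log2 fold changes of H2afz at the successive stages were -2.53 ± 0.38 (SE), -5.41 ± 0.17 and -5.19 ± 0.20, with adjusted p = 0.543, 9.71e-08 and 3.63e-08 in limma, and the unadjusted p at the 2-cell stage was 4.47e-05. The paralogue H2afv, which encodes H2A.Z.2, averaged 110 FPKM in control and 88.9 FPKM in KD 2-cell embryos (adjusted p = 0.84 in limma), and was called lower in KD morulae (-2.93 ± 0.15, adjusted p = 2.93e-06) and KD blastocysts (-1.86 ± 0.22, adjusted p = 7.95e-05). The depleted RNA in the later stages was thus that of both H2A.Z genes.

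Stage markers followed the stage labels. The summed FPKM of 5 markers of the 2-cell stage was 165 to 232 in control 2-cell embryos and 0.322 to 0.851 in control blastocysts, while that of 5 trophectoderm markers was 1.34 to 3.73 and 981 to 1468 in the same groups. Markers of cumulus cells, which can be carried over at collection, summed to at most 0.152 FPKM in any library, and all 6 were at 0 in the control blastocysts.

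Tests were run in limma on log2(FPKM + 1) over all genes that reached 1 FPKM in 3 or more libraries of a comparison, and a gene was called at an adjusted p under 0.05. The pseudocount makes these fold changes understate the change of low genes. The p-values measure the spread between libraries, which are separate pools of embryos as far as the labels tell. Of the 10 demethylase genes, 9 were tested in 2-cell KD against control and in control morulae against control 2-cell embryos, and 8 in each of the other comparisons. With this filter Kdm4b was never tested and Kdm4a was not tested in comparisons without 2-cell libraries, because their FPKM stayed under it.

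At each step of normal development most of the tested genes were called lower. From control 2-cell embryos to control morulae, 6 of the 9 tested genes were called lower and 3 higher, where 40.3% of the 13655 genes tested were called lower and 43% higher. Kdm4a, 1 of the 6, passed the filter through its 2-cell libraries alone, so it could only be lower. Over the other 8 genes, 5 were called lower and 3 higher and the median log2 fold change was -0.94. Over the 9614 genes that reached 1 FPKM in at least 1 library of each group, 30.9% were called lower and 45.6% higher and the median was 0.31. The 2 groups did not overlap for 8 of the 9 genes, Kdm4a among them, and did not overlap for 77.2% of all genes tested, so separation of the groups was common at this transition. From control morulae to control blastocysts, 6 of the 8 tested genes were called lower and 0 higher in limma, where 28.8% of 11849 genes were called lower and 27.6% higher, and 7253 of all genes had an unadjusted p under 0.05. The median was -0.71 over the 8 genes and -0.025 over all genes tested, and the groups did not overlap for 4 of the 8 genes and for 50.6% of all genes. Both comparisons use the control morulae. Rescaling FPKM to TPM moved the median of all genes by -0.33 in the first of these comparisons, and the calls of Kdm1a and Kdm2b as higher were lost (adjusted p = 0.186 and 0.2 in limma).

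After H2A.Z depletion 2 of the 10 demethylase genes were called, both in blastocysts. In 2-cell embryos 0 of the 9 tested genes were called in limma, as were 0 of 12160 genes overall (0%), 701 of which had an unadjusted p under 0.05. The KD and control libraries did not overlap for 1 of the 9 genes, Kdm1a, and for 6.78% of all genes. In morulae 0 of the 8 tested genes were called in limma, where 4.23% of 10989 genes were called higher and 9.04% lower and 3352 had an unadjusted p under 0.05. The groups did not overlap for 2 of the 8, Kdm1b and Kdm5b, against 29.6% of all genes. In blastocysts 2 of the 8 tested genes, Kdm2b and Kdm5b, were called higher and 0 lower in limma, where 16.7% of 11828 genes were called higher and 19.8% lower and 5439 had an unadjusted p under 0.05. The groups did not overlap for 1 of the 8, Kdm2b, against 34.5% of all genes. Each of these counts rests on at most 2 genes, so they do not set the family apart from the table as a whole. The median log2 fold change of the tested genes was 0.18, 0.088 and 0.31 at the 3 stages, and that of all genes tested was 0.0035, 0.015 and 0.0047. The difference of the KD effect between blastocysts and morulae was called for 1 of the 8 tested genes, Kdm2b, where 5.43% of 12727 genes were called higher and 6.32% lower.

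The scaling of the libraries moved the balance of all calls. Of 1458 genes called in KD morulae, 31.9% were higher, against 15.3% of 1834 with FPKM as deposited and 11.8% of 2027 with FPKM rescaled to TPM, and the median of all genes moved by -0.10 and -0.16. None of the 8 tested demethylase genes was called under either scaling. In KD blastocysts 45.8% of the calls were higher, against 51.8% with TPM. From control 2-cell embryos to morulae 51.6% were, against 45% with TPM, and from control morulae to blastocysts 49%, against 54.8% with FPKM as deposited and 44.4% with TPM. For the difference between the stages, 46.2% of 1495 called genes were higher, against 73.3% of 1755 with TPM, and the median of all genes moved by 0.12 with FPKM as deposited and 0.28 with TPM.

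Among the LSD genes, which act on H3K4, Kdm1b went down after the 2-cell stage. KDM1B acts in growing oocytes, where it is needed to set up DNA methylation at imprinted genes. Its FPKM was 13.3, 15.4, 13.8 and 13.1 in control 2-cell embryos, 3.25, 2.07, 1.92 and 1.84 in control morulae, and 2.15, 1.60, 2.74 and 2.15 in control blastocysts. All 2-cell libraries lay far above all later ones, whereas morulae and blastocysts overlapped. The log2 fold change from 2-cell embryos to morulae was -2.21 ± 0.16 (SE; 95% interval -2.56 to -1.86, adjusted p = 9.59e-08 in limma), a 6.14-fold difference of mean FPKM, and that from morulae to blastocysts was -0.096 ± 0.16 (adjusted p = 0.64). The last 505 of the 5495 exon bases of Kdm1b are also exon of Dek on the opposite strand. Whether strand was used in counting is not given in the sources used here. Dek itself averaged 109 FPKM in control 2-cell embryos and 27.8 FPKM in control morulae (-1.98 ± 0.19, adjusted p = 8.41e-07 in limma), and its part in the Kdm1b values was not tested.

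KD against control, Kdm1b was not called at any stage. In 2-cell KD libraries it stood at 17.5, 17.8 and 13.5 FPKM, overlapping the controls. In KD morulae it stood at 1.80, 1.56 and 1.43 FPKM, each below the lowest control, but the log2 fold change was -0.23 ± 0.16 (adjusted p = 0.358 in limma), and -0.14 without control replicate 1. Over the 15 alternatives the log2 fold change ran from -0.41 to -0.14. In KD blastocysts it stood at 1.91, 1.82, 2.59 and 1.16 FPKM, of which 3 lay within the control range and replicate 6 below it.

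Kdm1a encodes LSD1, the catalytic subunit of the CoREST corepressor complex. Control 2-cell libraries had 5.32, 2.37, 5.34 and 5.17 FPKM, control morulae 7.01, 7.90, 8.35 and 7.58 FPKM, and control blastocysts 2.83, 9.40, 8.12 and 6.69 FPKM. Morulae were above every 2-cell library. The 2-cell library at 2.37 FPKM stood apart from the others of its group, and the blastocyst controls were spread from 2.83 to 9.40 FPKM. Kdm1a was called higher in control morulae than in control 2-cell embryos (0.69 ± 0.21, adjusted p = 0.01 in limma). Without 2-cell control replicate 2, the library at 2.37 FPKM, the value was 0.46 (adjusted p = 0.0328). The call was lost with TPM (0.39, adjusted p = 0.186) and with a replicate block (0.72, adjusted p = 0.0514). From morulae to blastocysts the value was -0.34 ± 0.25 (adjusted p = 0.259 in limma), and it was -0.069 (adjusted p = 0.758) without blastocyst control replicate 1, the library at 2.83 FPKM.

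In KD 2-cell embryos Kdm1a stood at 6.88, 7.57 and 5.95 FPKM, each above the highest control. The log2 fold change was 0.59 ± 0.24 with an unadjusted p of 0.0317, but over all genes the adjusted p was 0.828 in limma, and the value was 0.38 (adjusted p = 0.609) without 2-cell control replicate 2. KD morulae had 7.72, 7.69 and 7.14 FPKM and KD blastocysts 9.13, 7.06, 7.95 and 8.29 FPKM. Both sets lay within the range of their controls, with adjusted p = 0.762 and 0.328 in limma. In blastocysts the value was 0.33, and 0.062 without control replicate 1.

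The KDM5 enzymes remove trimethylation from H3K4, the mark of active promoters. Kdm5b was the most abundant of the 10 genes by FPKM in 2-cell embryos and morulae of either treatment, although Kdm2b overlapped it in control morulae. Its FPKM was 32.0, 40.6, 31.5 and 34.2 in control 2-cell embryos, 17.6, 16.3, 19.2 and 17.1 in control morulae, and 3.02, 4.97, 7.45 and 4.39 in control blastocysts. The 3 stages did not overlap at any point, and each step went down. It fell by 0.94 ± 0.17 on the log2 scale (adjusted p = 0.000215 in limma) in the first step and by 1.77 ± 0.19 (adjusted p = 1.2e-05) in the second.

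KD 2-cell embryos had 37.5, 39.5 and 35.97 FPKM of Kdm5b, within the control range. KD morulae had 22.3, 22.9 and 22.3 FPKM, a tight group above every control morula. On the log2 scale the difference was 0.46 ± 0.14 (95% interval 0.14 to 0.78), with an unadjusted p of 0.0086 and an adjusted p of 0.0578 in limma, just over the threshold. It was called (0.49, adjusted p = 0.0245 in limma) once a term separated low from high replicate numbers as a batch. Over the 15 alternatives the value ran from 0.29 to 0.55 and the adjusted p from 0.0245 to 0.177. In morulae the deviations of control and KD libraries correlated at 0.094 to 0.347 within low or within high replicate numbers and at -0.278 to -0.095 across them.

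KD blastocysts had 12.9, 8.63, 9.62 and 6.37 FPKM of Kdm5b. Of these, 3 were above every control blastocyst, and replicate 6 was below the highest control, replicate 5 at 7.45 FPKM. Kdm5b was called higher, by 0.83 ± 0.24 on the log2 scale (95% interval 0.30 to 1.35, adjusted p = 0.0188 in limma), a 1.89-fold difference of mean FPKM. The call was lost without control replicate 1, the lowest control (0.69, adjusted p = 0.053), without KD replicate 1, the highest KD library (0.65, adjusted p = 0.0528), and with no filter on low genes (adjusted p = 0.0826). The KD effect on Kdm5b did not differ detectably between blastocysts and morulae (difference 0.32 ± 0.30, adjusted p = 0.522 in limma; 0.14 without blastocyst KD replicate 1 and 0.20 without blastocyst control replicate 1), so a call at one stage alone does not set the stages apart.

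Kdm5a, the paralogue first described as a partner of the retinoblastoma protein, ran from 11.8 to 14.2 FPKM in control 2-cell embryos, 5.16 to 7.45 FPKM in control morulae and 2.88 to 4.88 FPKM in control blastocysts. Successive stages did not overlap, and both steps were called lower, by -0.94 ± 0.15 (adjusted p = 0.000115 in limma) and -0.70 ± 0.17 (adjusted p = 0.00362). KD libraries ran from 8.72 to 12.0 FPKM in 2-cell embryos, 5.60 to 6.32 FPKM in morulae and 2.93 to 5.83 FPKM in blastocysts, overlapping their controls at every stage (adjusted p = 0.848, 0.684 and 0.305 in limma). With a library left out, the log2 fold changes ran from -0.30 to -0.14, 0.057 to 0.12 and 0.19 to 0.47. Of its 14158 exon bases, 251 are shared with Ccdc77 on the opposite strand.

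**Figure D1:**
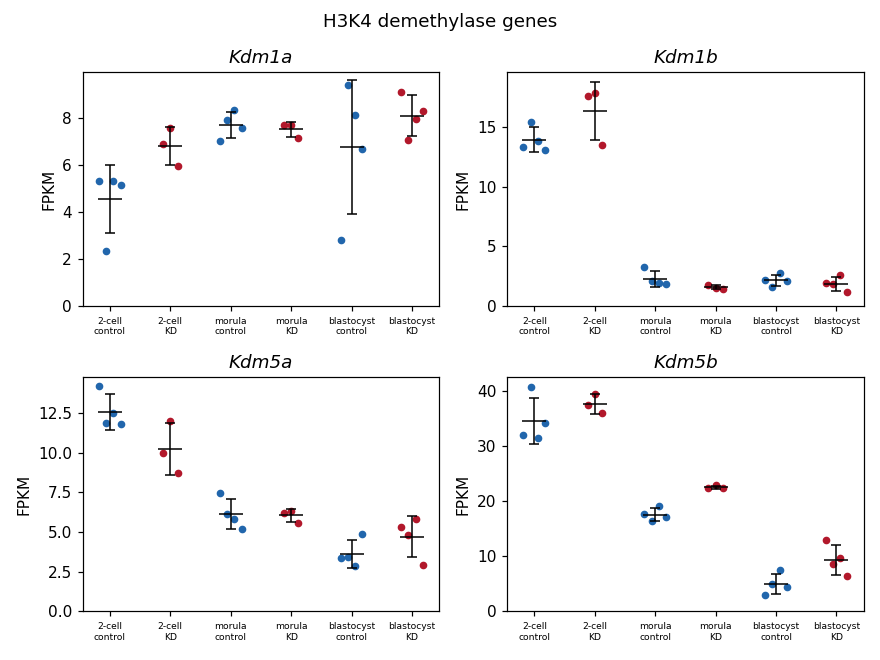
FPKM of the H3K4 demethylase genes Kdm1a, Kdm1b, Kdm5a and Kdm5b in each library (points; blue, control; red, KD) of the 6 groups, with the mean and SD as black bars. Kdm1b drops from 13.1 to 15.4 FPKM in control 2-cell embryos to 1.84 to 3.25 FPKM in control morulae, and Kdm5b is at 3.02 to 7.45 FPKM in control and 6.37 to 12.9 FPKM in KD blastocysts.

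Kdm3a, which removes mono- and dimethylation from H3K9 and is needed for spermatid maturation, stood at 24.2, 19.5, 17.5 and 13.2 FPKM in control 2-cell embryos, 8.77, 6.78, 6.32 and 5.46 FPKM in control morulae and 3.16, 5.02, 5.88 and 4.52 FPKM in control blastocysts. The 2-cell libraries were above all morulae, and the ranges of morulae and blastocysts overlapped. Both steps were called lower, by -1.32 ± 0.21 (adjusted p = 8.3e-05 in limma) and -0.55 ± 0.16 (adjusted p = 0.0131), and the second call was lost with FPKM as deposited (-0.48, adjusted p = 0.0613). KD libraries ran from 20.3 to 23.0 FPKM in 2-cell embryos, 7.59 to 9.25 FPKM in morulae and 3.83 to 7.64 FPKM in blastocysts. They overlapped the controls at each stage, and the log2 fold changes were 0.30 ± 0.21, 0.36 ± 0.15 and 0.16 ± 0.19 (adjusted p = 0.844, 0.136 and 0.54 in limma). With a library left out, Kdm3a in 2-cell embryos was 0.15 without control replicate 5 and 0.45 without control replicate 1. In blastocysts it was 0.050 without KD replicate 5, 0.062 without control replicate 1 and 0.26 without KD replicate 1. In morulae the value of Kdm3a ran from 0.21 to 0.42 over the 15 alternatives.

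The KDM4 enzymes act on trimethylated H3K9 and H3K36, and their genes differed widely in level. Kdm4c stood at 15.0, 20.0, 13.9 and 13.3 FPKM in control 2-cell embryos, 5.58, 1.93, 3.89 and 5.19 FPKM in control morulae and 1.87, 2.59, 2.38 and 1.66 FPKM in control blastocysts. The 2-cell libraries stood apart from the rest, and morula replicate 2 lay among the blastocysts. The first step was called lower (-1.74 ± 0.26, adjusted p = 4.4e-05 in limma), as was the second (-0.73 ± 0.23, adjusted p = 0.0201). The second call was lost without morula control replicate 1 (-0.63, adjusted p = 0.055), morula control replicate 8 (-0.59, adjusted p = 0.0583) or blastocyst control replicate 6 (-0.64, adjusted p = 0.0588), and with no filter on low genes (adjusted p = 0.0786).

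After KD, Kdm4c stood at 14.0, 14.0 and 13.8 FPKM in 2-cell embryos, 8.53, 6.36 and 4.96 FPKM in morulae and 1.04, 2.45, 3.31 and 1.38 FPKM in blastocysts. In morulae 2 of the 3 KD libraries were above all controls and replicate 6 was not. For morulae the log2 fold change was 0.71 ± 0.27 (adjusted p = 0.106 in limma), and leaving out control replicate 2, the library at 1.93 FPKM, gave 0.46, the lowest value of any left-out library. A replicate block, with 1 residual degree of freedom, gave 1.07, which was called (adjusted p = 0.0013). In blastocysts the KD effect on Kdm4c was -0.090 ± 0.22 (adjusted p = 0.786 in limma), and the difference between the stages was -0.83 ± 0.36 (adjusted p = 0.151).

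Kdm4a had 2.15, 3.60, 2.97 and 2.85 FPKM in control 2-cell embryos and 0.209, 0.115, 0.062 and 0.082 FPKM in control morulae. It was low but above 0 in every morula and blastocyst library, at 0.031 to 0.209 FPKM. Mean FPKM differed 24.7-fold between the 2 groups. Because Kdm4a passed the filter through the 2-cell libraries alone, its direction was set by the filter, and the levels are given with no test. In 2-cell KD libraries Kdm4a had 2.24 to 3.33 FPKM, overlapping the controls (0.011 ± 0.20, adjusted p = 0.996 in limma), and the sign of that small value changed with FPKM as deposited (-0.037) and with TPM (-0.071). Kdm4b did not reach 1 FPKM in any library. Its highest values were 0.984 FPKM in 2-cell KD and 0.722 FPKM in 2-cell control libraries, and its range was 0.133 to 0.488 FPKM in morulae and blastocysts.

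Kdm2b had the largest difference between KD and control among the demethylase genes tested in blastocysts. KDM2B removes methyl groups from H3K36, binds unmethylated CpG islands through a CXXC zinc finger and brings the variant Polycomb complex PRC1.1 to them. Its FPKM was 8.13, 3.00, 7.06 and 7.62 in control 2-cell embryos, 23.4, 11.2, 12.7 and 6.55 in control morulae, and 1.05, 1.13, 1.13 and 1.32 in control blastocysts. Control morulae were spread widely and overlapped the 2-cell range, whereas the control blastocysts were tightly grouped far below both. The log2 fold change from morulae to blastocysts was -2.67 ± 0.25 (95% interval -3.22 to -2.12, adjusted p = 4.61e-06 in limma), an 11.6-fold difference of mean FPKM. Kdm2b was called higher in control morulae than in control 2-cell embryos (0.89 ± 0.31, adjusted p = 0.0195 in limma), but not without 2-cell control replicate 2, the library at 3.00 FPKM (0.60, adjusted p = 0.0746), without morula control replicate 1, the library at 23.4 FPKM (0.69, adjusted p = 0.054), with TPM (0.58, adjusted p = 0.2) or with no filter on low genes (adjusted p = 0.0783).

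KD blastocysts had 7.14, 4.54, 10.6 and 5.96 FPKM of Kdm2b. Even the lowest of these exceeded the highest control blastocyst, and all 4 lay in the range seen across 2-cell and morula libraries. On the log2 scale KD was higher by 1.85 ± 0.20 (95% interval 1.42 to 2.27, adjusted p = 4.6e-05 in limma), a 6.10-fold difference of mean FPKM. It was called under each of the 16 alternatives, with values from 1.70 to 2.45 and adjusted p from 3.86e-05 to 0.00195.

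KD morulae had 3.75, 12.1 and 2.28 FPKM of Kdm2b. Replicates 1 and 6 were below every control morula, while replicate 2 was close to the median of the controls. In morulae the difference was -1.06 ± 0.44 (95% interval -2.04 to -0.072, adjusted p = 0.138 in limma), and it depended on single libraries: without KD replicate 2 it was -1.64 and called (adjusted p = 0.0318), and without KD replicate 6 it was -0.66 (adjusted p = 0.357). It was also called with a replicate block (-0.97, adjusted p = 0.00283), a fit with 1 residual degree of freedom. KD 2-cell embryos had 6.48, 6.50 and 2.31 FPKM, overlapping the controls, with a log2 fold change of -0.26 ± 0.35 (adjusted p = 0.908 in limma) that was 0.12 without KD replicate 4, the library at 2.31 FPKM. The difference of the KD effect between blastocysts and morulae was 2.86 ± 0.51 on the log2 scale (95% interval 1.78 to 3.94, adjusted p = 0.00184 in limma). Control blastocysts thus had far less Kdm2b transcript than control morulae, while KD blastocysts and KD morulae, which were not tested against each other, averaged 7.06 ± 2.58 and 6.05 ± 5.32 FPKM (SD, n = 4 and 3). The same control blastocysts enter the comparison with control morulae and the comparison with KD blastocysts, for Kdm2b as for Kdm5b.

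Kdm6b, which encodes the H3K27 demethylase JMJD3, peaked in morulae. It stood at 3.24, 3.56, 4.61 and 3.75 FPKM in control 2-cell embryos, 9.11, 9.62, 11.1 and 10.3 FPKM in control morulae and 2.11, 4.40, 4.94 and 5.85 FPKM in control blastocysts. No morula library overlapped either of the other stages. It was called higher in the first step (1.20 ± 0.16, adjusted p = 1.98e-05 in limma) and lower in the second (-1.19 ± 0.21, adjusted p = 0.000533). KD libraries had 4.14, 3.65 and 4.90 FPKM in 2-cell embryos, 10.9, 7.22 and 8.85 FPKM in morulae and 6.69, 5.12, 6.84 and 5.19 FPKM in blastocysts. They overlapped the controls at every stage, and the log2 fold changes were 0.18 ± 0.18, -0.043 ± 0.18 and 0.45 ± 0.22 (adjusted p = 0.875, 0.894 and 0.13 in limma). Without blastocyst control replicate 1, the library at 2.11 FPKM, the last was 0.24, and in 2-cell embryos the value was 0.075 without KD replicate 4 and 0.29 without KD replicate 2. Kdm6bos, transcribed from the opposite strand, covers 286 of the 6954 exon bases of Kdm6b and reached at most 0.453 FPKM.

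**Figure D2:**
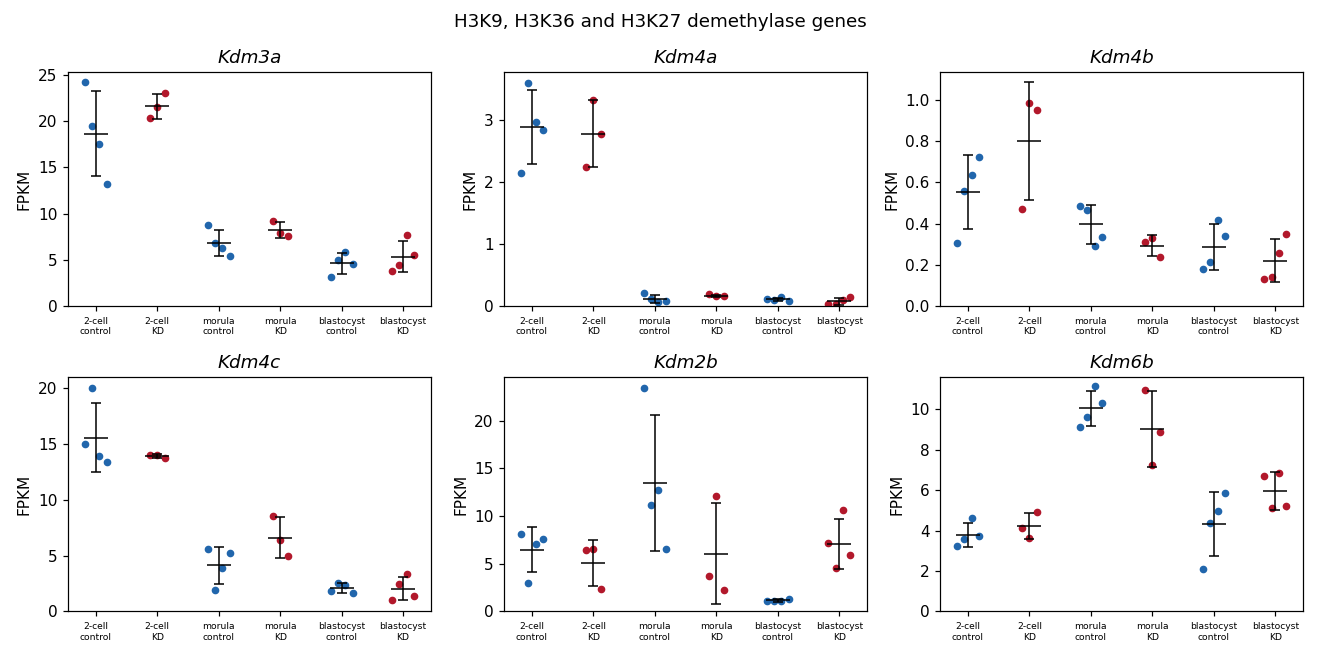
FPKM of Kdm3a, Kdm4a, Kdm4b, Kdm4c, Kdm2b and Kdm6b in each library (points; blue, control; red, KD) of the 6 groups, with the mean and SD as black bars and a separate vertical scale for each gene. Kdm2b is at 1.05 to 1.32 FPKM in control blastocysts and 4.54 to 10.6 FPKM in KD blastocysts, and Kdm6b is highest in control morulae at 9.11 to 11.1 FPKM.

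**Figure D3:**
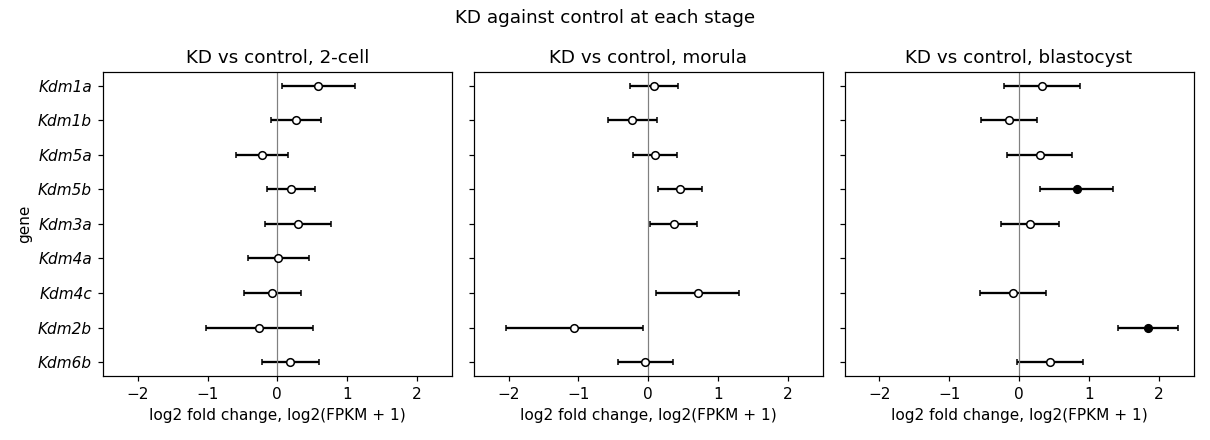
Log2 fold change of KD against control on the log2(FPKM + 1) scale for the tested genes at the 3 stages, with 95% intervals; filled points were called at an adjusted p under 0.05. The filled points are Kdm5b (0.83) and Kdm2b (1.85) in blastocysts.

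The order of the genes by mean FPKM changed with stage. In control 2-cell embryos it ran Kdm5b (34.6), Kdm3a (18.6), Kdm4c (15.6), Kdm1b (13.9), Kdm5a (12.6), Kdm2b (6.45), Kdm1a (4.55), Kdm6b (3.79), Kdm4a (2.89) and Kdm4b (0.556). Kdm5b stood clear of Kdm3a, Kdm5a of Kdm2b and Kdm4a of Kdm4b, and the other neighbours overlapped. In control morulae it ran Kdm5b (17.6), Kdm2b (13.5), Kdm6b (10.0), Kdm1a (7.71), Kdm3a (6.83), Kdm5a (6.15), Kdm4c (4.15), Kdm1b (2.27), Kdm4b (0.396) and Kdm4a (0.117), with no overlap between Kdm6b and Kdm1a, Kdm1b and Kdm4b, and Kdm4b and Kdm4a. In control blastocysts it ran Kdm1a (6.76), Kdm5b (4.96), Kdm3a (4.64), Kdm6b (4.32), Kdm5a (3.63), Kdm1b (2.16), Kdm4c (2.12), Kdm2b (1.16), Kdm4b (0.289) and Kdm4a (0.114). The first 5 overlapped from neighbour to neighbour, as did Kdm1b and Kdm4c, and the other neighbours did not.

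After KD the largest shifts of rank were those of Kdm2b. It had rank 8 of the 10 genes in control blastocysts and rank 3 in KD blastocysts, at 7.06 FPKM between Kdm1a (8.11) and Kdm6b (5.96), and its values there overlapped those of both neighbours. In morulae it had rank 2 in controls and rank 6 after KD, at 6.05 FPKM. Kdm3a went from rank 5 to 3 and Kdm4c from rank 7 to 5 in morulae, and in blastocysts Kdm3a went from rank 3 to 5 and Kdm1b from rank 6 to 8. Kdm5b had rank 1 in both groups of 2-cell embryos and morulae, and went from rank 2 to 1 in blastocysts, at 9.39 FPKM after KD, overlapping Kdm1a. In KD morulae Kdm5b stood clear of all others at 22.5 FPKM, and the genes from Kdm6b (9.01) to Kdm5a (6.05) overlapped from neighbour to neighbour. In KD 2-cell embryos Kdm5b (37.6), Kdm3a (21.6) and Kdm1b (16.3) led, and Kdm1b and Kdm4c (13.9) overlapped.

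The summed FPKM of the 10 genes was 113 ± 6.85 (SD, n = 4) in control and 119 ± 7.51 (n = 3) in KD 2-cell embryos, 68.7 ± 10.4 (n = 4) and 68.1 ± 6.52 (n = 3) in morulae, and 30.2 ± 7.11 (n = 4) and 44.8 ± 8.16 (n = 4) in blastocysts. The sums of control and KD libraries overlapped in 2-cell embryos and morulae. In blastocysts they ran from 19.8 to 36.1 FPKM in controls and from 37.3 to 54.7 FPKM after KD, without overlap. Most of this difference was that of the 2 called genes, with means of 1.16 and 7.06 FPKM for Kdm2b and 4.96 and 9.39 FPKM for Kdm5b.

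Markers of cell types and stages were followed in the same KD blastocysts, where 19.8% of all genes were called lower and 16.7% higher. The 5 trophectoderm markers summed to 981 to 1468 FPKM in controls and 571 to 765 FPKM after KD, with Krt18 the most abundant in both. Of these 5, 1 was called lower, Krt18 (-1.02 ± 0.18, adjusted p = 0.00126 in limma), and 0 higher. Krt8 was at -0.49, Eomes at -0.48, Gata3 at -0.29 and Cdx2 at 0.045 (adjusted p = 0.0794, 0.136, 0.199 and 0.9). The 5 markers of the 2-cell stage summed to 0.322 to 0.851 FPKM in controls and 2.52 to 7.87 FPKM after KD, with Zfp352 the most abundant, at 0.083 to 0.772 FPKM and 1.52 to 5.02 FPKM. It passed the filter through the KD libraries alone, so no test is given for it, and the other 4 were not tested. The 4 pluripotency markers summed to 114 to 223 FPKM and 140 to 286 FPKM, mostly Nanog, and their ranges overlapped. Of these 4, 1 was called higher, Klf4 (0.61 ± 0.20, adjusted p = 0.031 in limma), with no overlap of the groups, and 0 lower. The groups did not overlap for 34.5% of all genes tested in blastocysts. The 5 oocyte markers summed to 1.77 to 2.21 FPKM and 2.14 to 4.89 FPKM, and the 4 primitive endoderm markers to 10.2 to 20.3 FPKM and 10.2 to 37.1 FPKM, with Zp3 and Gata6 the most abundant, and 0 of the 1 tested in each list was called. Gata6 averaged 10.6 FPKM in controls and 19.0 FPKM after KD, and Gata4 0.040 and 0.066 FPKM. Pdgfra and Sox17 went the other way, at 1.72 and 0.595 FPKM and at 0.596 and 0.277 FPKM. The groups overlapped for each of these primitive endoderm markers.

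In KD morulae the 4 pluripotency markers summed to 39.5 to 54.8 FPKM against 127 to 171 FPKM in controls, and 1 of the 3 tested was called lower, against 9.04% of all genes. That gene, Nanog, averaged 106 FPKM in controls and 20.7 FPKM after KD (-2.23 ± 0.37, adjusted p = 0.00647 in limma), while Pou5f1 (-0.49 ± 0.24, adjusted p = 0.195) and Klf4 (0.15 ± 0.17, adjusted p = 0.564) were not called. The groups did not overlap for Nanog and Pou5f1 and overlapped for Klf4, and they did not overlap for 29.6% of all genes tested in morulae. The markers of the 2-cell stage summed to 0.515 to 4.04 FPKM in controls and 3.23 to 4.97 FPKM after KD. Among them, 1 of the 2 tested was called higher, against 4.23% of all genes. That gene was Tdpoz3 (0.81 ± 0.21, adjusted p = 0.0281 in limma), with no overlap of the groups. The trophectoderm markers summed to 93.1 to 131 FPKM and 69.6 to 104 FPKM, with Krt18 the most abundant, and 0 of 4 were called. Gata3 had the smallest adjusted p (-0.57, adjusted p = 0.0658 in limma), with no overlap of the groups. The oocyte markers summed to 4.79 to 10.3 FPKM and 8.42 to 11.2 FPKM and the primitive endoderm markers to 9.01 to 28.0 FPKM and 9.46 to 10.5 FPKM, with 0 of 2 and 0 of 1 called. The part of these values in those of Kdm2b and Kdm5b was not tested.

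Kdm2b lies on the minus strand of chromosome 5, at chr5:122870665-122989823, and the GENCODE annotation of GRCm38 gives it 20 transcripts. The longest coding transcript encodes 1309 residues, and a shorter one, Kdm2b-201, starts inside the gene at position 122900355 and encodes 776 residues. FPKM pools these transcripts, so a change of the start and a change of the level cannot be told apart. At its end, 627 of 10869 exon bases are shared with Rnf34 on the opposite strand, which averaged 9.02 FPKM in control morulae and 10.0 FPKM in control blastocysts and was not called between KD and control blastocysts (0.057 ± 0.16, adjusted p = 0.819 in limma). Of 11242 stretches of 100 bases in Kdm2b transcripts, 516 also occur in Gm12397, so reads there could be split. Gm12397 had 1.60, 1.30, 1.02 and 1.47 FPKM in control blastocysts and 2.103, 1.35, 3.60 and 1.40 FPKM after KD (0.35 ± 0.21, adjusted p = 0.211 in limma). The 2 groups overlapped for Gm12397 and did not for Kdm2b. Between stages Gm12397 was called in the same directions as Kdm2b, higher from control 2-cell embryos to morulae (1.16 ± 0.25, adjusted p = 0.000896 in limma) and lower from control morulae to blastocysts (-1.44 ± 0.24, adjusted p = 0.000285), and the part of shared reads in either gene was not tested.

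Sequences before the annotated starts were at hand for 7 of the 10 genes; Kdm5a, Kdm4b and Kdm6b had none. The starts shown are those of the genes with the widest range between group means of log2(FPKM + 1), Kdm1b, Kdm5b and Kdm2b, the last with its internal start and 1 of its upstream starts. As a ratio of mean FPKM, the range of Kdm4a was wider, from 2.89 FPKM in control 2-cell embryos to 0.081 FPKM in KD blastocysts. Each run holds the bases just before a start, from RefSeq on GRCm38.p6, 5′ to 3′ on the strand of the gene. Capitals mark the letters CCAAT and GGGCGG on either strand (also read as ATTGG and CCGCCC), and neighbouring matches may overlap. CCAAT was found in 33.8% and GGGCGG in 32.7% of 32807 promoters, each read over the 250 bases before its start. Annotated exon bases of the gene itself were left out of the runs, so those of Kdm5b and Kdm2b are shorter, at 243, 245 and 221 bases. A match is common and describes the letters only.
Kdm1b, chr13:47043249-47043498, plus strand: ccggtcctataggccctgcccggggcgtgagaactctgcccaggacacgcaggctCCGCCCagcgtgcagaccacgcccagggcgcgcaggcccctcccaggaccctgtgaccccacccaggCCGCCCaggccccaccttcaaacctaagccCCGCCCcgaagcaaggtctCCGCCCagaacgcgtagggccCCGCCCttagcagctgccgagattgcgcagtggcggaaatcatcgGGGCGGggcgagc
Kdm5b, chr1:134559928-134560170, plus strand: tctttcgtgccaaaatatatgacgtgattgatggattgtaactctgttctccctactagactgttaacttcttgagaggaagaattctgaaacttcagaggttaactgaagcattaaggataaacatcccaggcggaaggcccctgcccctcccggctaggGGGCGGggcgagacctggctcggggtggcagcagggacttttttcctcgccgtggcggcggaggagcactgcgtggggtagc
Kdm2b internal, chr5:122900356-122900600, minus strand: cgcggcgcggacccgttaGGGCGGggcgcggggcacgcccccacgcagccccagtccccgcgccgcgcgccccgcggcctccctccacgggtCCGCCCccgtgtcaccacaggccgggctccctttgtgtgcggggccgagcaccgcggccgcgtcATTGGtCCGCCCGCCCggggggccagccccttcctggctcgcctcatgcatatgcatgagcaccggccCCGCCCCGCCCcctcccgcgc
Kdm2b upstream, chr5:122988537-122988757, minus strand: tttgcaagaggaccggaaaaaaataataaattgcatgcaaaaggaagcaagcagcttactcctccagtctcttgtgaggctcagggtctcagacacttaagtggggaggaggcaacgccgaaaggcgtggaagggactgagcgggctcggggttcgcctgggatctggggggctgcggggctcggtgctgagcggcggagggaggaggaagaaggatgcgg
GGGCGG was found 6 times before Kdm1b, 1 time before Kdm5b, 6 times before the internal start of Kdm2b and 0 times before the upstream start shown, and CCAAT 1 time, before the internal start of Kdm2b. The 250 bases before another upstream start, that of the longest coding transcript at position 122989099, hold GGGCGG 1 time, and they are not shown because 207 of them are exon of other Kdm2b transcripts.

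Further gene lists are given as counts over the genes that reached 1 FPKM in at least 1 library of each group, beside the same over all such genes, since a gene that passed the filter through 1 group alone could only go 1 way. From control 2-cell embryos to morulae, the first step, 30.9% of all such genes were called lower and 45.6% higher, and in the second step 27.6% and 24.1%. After KD 0% were called in 2-cell embryos, 7.7% lower and 4.14% higher in morulae, and 18.3% lower and 15% higher in blastocysts. The medians over all such genes were 0.31 and -0.047 in the 2 steps and 0.0066, 0.031 and 0.0045 after KD. The lists have 6 to 20 such genes each, and no test of a list was made.

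Of 15 other demethylase genes, 9 reached 1 FPKM in both control 2-cell embryos and control morulae, with 1 called higher and 6 lower and a median log2 fold change of -0.67. Kdm7a, for an H3K9 and H3K27 demethylase, had the smallest adjusted p, at 25.9 FPKM in 2-cell embryos and 1.93 FPKM in morulae (-3.20 ± 0.15, adjusted p = 3.32e-09 in limma). From morulae to blastocysts 0 of 7 were called higher and 2 lower in limma, with a median of -0.38. After KD 0 of 11, 0 of 8 and 0 of 6 were called in 2-cell embryos, morulae and blastocysts. Uty and Kdm5d were not tested in blastocysts, where they averaged 1.68 and 0.328 FPKM in controls and 0.186 and 0.022 FPKM after KD, without overlap. In morulae Uty averaged 0.844 FPKM in controls and 0.10 FPKM after KD, without overlap, and Kdm5d 0.167 and 0.289 FPKM, with overlap. The labels do not give the sex of the pooled embryos, and the part of sex in these values was not tested. Kdm4d and Hr, not tested either, were higher in KD blastocysts without overlap (0 against 0.015 FPKM and 0.063 against 0.244 FPKM). Kdm4d had only 0.007 to 0.031 FPKM after KD, far under the filter. Of the 7 genes of this list that passed the filter there, the groups did not overlap for 2, Kdm7a among them, against 34.5% of all genes tested. Kdm7a averaged 0.742 FPKM in control and 1.84 FPKM in KD blastocysts and passed the filter there through the KD libraries alone, so no test of it is given. The medians in the 3 KD comparisons were -0.14, 0.14 and 0.30.

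Of 12 genes for partners of LSD1 and LSD2, 9 were tested in the first step, with 4 called higher and 2 lower (45.6% and 30.9% of all such genes) and a median of -0.12. Hdac1 and Hdac2, for the deacetylases of the CoREST complex, rose from 69.9 to 207 and from 26.3 to 91.0 FPKM (adjusted p = 3.95e-05 and 3.79e-06 in limma), while Rcor1, for CoREST itself, fell from 21.2 to 4.29 FPKM (adjusted p = 1.19e-06). In the second step 1 of 8 was called higher (Hdac2) and 1 lower (Hdac1, from 207 to 68.8 FPKM, adjusted p = 1.01e-05 in limma), with a median of 0.20. After KD, 0 of 9 were called higher and 1 lower in morulae. In blastocysts 1 of 8 was called higher and 1 lower, the first being Hmg20b, for a protein of the CoREST complex (1.03 against 2.29 FPKM, adjusted p = 0.0325 in limma). In KD 2-cell embryos 0 of 8 were called, and the medians at the 3 stages were -0.034, 0.059 and 0.068.

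Of 9 genes for partners of KDM2B in PRC1.1, 6 were tested, and from control 2-cell embryos to morulae 5 were called lower and 1 (Skp1a) higher, where 30.9% and 45.6% of all such genes were, with a median of -1.15, whereas Kdm2b was called higher there. Pcgf1, for the subunit that defines the complex, went from 273 to 51.4 and then 19.2 FPKM (adjusted p = 3.79e-06 and 0.000727 in limma), and 4 of the 6 were called lower in the second step, with a median of -0.44. In KD morulae 3 of 6 were called higher, against 4.14% of all such genes: Yaf2 (7.29 against 12.0 FPKM, adjusted p = 0.0158 in limma), the deubiquitinase gene Usp7 (22.5 against 30.4 FPKM, adjusted p = 0.033) and Rnf2, for the E3 ligase RING1B (41.1 against 55.4 FPKM, adjusted p = 0.0425). In KD blastocysts 2 of 6 were called higher, against 15% of all such genes, Yaf2 (6.29 against 9.98 FPKM, adjusted p = 0.0402 in limma) and Usp7 (17.0 against 23.3 FPKM, adjusted p = 0.0473). In KD 2-cell embryos 0 of 6 were called. The median log2 fold change was 0.26, 0.52 and 0.32 in the 3 KD comparisons, and with 6 genes these counts describe the named genes only.

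Of 19 methyltransferase genes that write the same marks, 13 reached 1 FPKM on both sides of the first step and 11 were called lower, against 30.9% of all such genes, and 1 higher (Ehmt2), with a median of -1.62. Setdb2, for an H3K9 methyltransferase family member, and Kmt2c, for an H3K4 methyltransferase, went from 29.3 to 2.94 and from 23.7 to 3.42 FPKM (adjusted p = 9.77e-09 and 1.34e-07 in limma). In the second step 3 of 12 were called lower, with Ezh2, for the H3K27 methyltransferase of PRC2, going from 30.7 to 15.6 FPKM (adjusted p = 0.00048 in limma), and 1 higher, Suv39h2, with a median of -0.042. In KD morulae 1 of 11 was called, Setd2 for the H3K36 trimethylase (12.2 against 16.7 FPKM, adjusted p = 0.0321 in limma), and in KD blastocysts 2 of 13, Ehmt2 (1.80 against 3.55 FPKM, adjusted p = 0.0312) and Ezh2 (15.6 against 21.2 FPKM, adjusted p = 0.0496), all of them higher. In KD 2-cell embryos 0 of 17 were called, and the medians at the 3 stages were 0.23, 0.24 and 0.17.

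Of 20 genes for enzymes around 2-oxoglutarate, succinate, fumarate and FAD, 19 were tested in the first step, with 15 called higher and 2 lower (45.6% and 30.9% of all such genes) and a median of 1.52. Idh1 and Idh2, for isocitrate dehydrogenases that make 2-oxoglutarate, went from 1.28 to 86.6 and from 1.07 to 49.3 FPKM (adjusted p = 8.88e-10 and 8.51e-10 in limma). In the second step 13 of 19 were called higher and 3 lower (24.1% and 27.6% of all such genes), with a median of 0.77. In KD morulae 5 of 18 were called lower and 0 higher in limma, with a median of -0.27, among them Sdhd, for a subunit of succinate dehydrogenase (39.1 against 14.9 FPKM, adjusted p = 0.00436), and Flad1, for FAD synthase (7.01 against 2.25 FPKM, adjusted p = 0.00452). In KD blastocysts 8 of 20 were called lower, Sdhd among them (175 against 38.7 FPKM, adjusted p = 5.92e-05 in limma), and 2 higher, among them Psat1 (117 against 239 FPKM, adjusted p = 0.000326), with a median of -0.39. In KD 2-cell embryos 0 of 19 were called, with a median of -0.24. The difference of the KD effect between the stages was called for Psat1 alone among these 5 lists, and the KD comparisons at each stage use different libraries.

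For the 3 genes with the widest range between group means of log2(FPKM + 1), the most similar profiles were sought among 15465 genes over the 22 libraries, as the Pearson correlation on that scale. The libraries share stage and treatment, so these values describe a profile only. Kdm5b was most like Slc12a2 (r = 0.976) and Adam17 (r = 0.969), and Kdm1b most like Gm31579 (r = 0.99) and Gna12 (r = 0.989). Kdm2b had no such close match, its highest being Pgs1 (r = 0.83) and Riok3 (r = 0.825).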

How the data were processed

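FPKM values per gene and library were deposited by the authors, who per the labels and methods aligned reads to mm10 with STAR and quantified them with StringTie 2.1.4. The authors' count test was not used, since FPKM are not counts. FPKM were divided by a median-of-ratios factor per library within each comparison (0.895 to 1.19) and tested as log2(FPKM + 1) with limma 3.58.1 in R 4.3.3 (eBayes with a trend, checked on simulated data), after keeping genes that reached 1 FPKM in 3 or more libraries. P-values were adjusted by Benjamini-Hochberg over all genes tested. Tables and figures were made with Python 3.11.15, pandas 2.3.3, numpy 2.4.6 and matplotlib 3.10.9. The demethylase genes and the gene lists were chosen with earlier results of these data known. Named genes were the 10 genes, H2afz and H2afv, markers, up to 3 genes per list and comparison with the smallest adjusted p under 0.05, and the 2 closest profiles of the 3 genes with the widest range on the log2 scale. Single values of 2 list genes are not reported here, and both are in the counts and medians of their lists. Genes named where 5 or fewer of a list were called, overlapping genes, Uty and Kdm5d in morulae and blastocysts, and Kdm4d and Hr in blastocysts were chosen after their values were seen. Alternatives were a pseudocount of 0.1, no filter, FPKM as deposited, TPM, no trend, a replicate block, a batch term for the range of replicate numbers, leaving out each library, and factors divided by their geometric mean, the last added after seeing the data.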

Additional observations from a re-analysis of the deposited data

Results flagged for a closer look

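In 48 groups of 4 libraries (the 10 demethylase genes, H2afz and H2afv), the highest or lowest library was compared with the other 3, and 2 stood apart; chance flags about 1 in 20 groups. Kdm1a was at 2.37 FPKM in 2-cell control replicate 2, and the other 3 libraries were at 5.17 to 5.34 FPKM. Kdm1b was at 3.25 FPKM in morula control replicate 1, and the others were at 1.83 to 2.07 FPKM. The Kdm1b difference between KD and control morulae was -0.23, and it was -0.14 without that library (adjusted p = 0.515 in limma). The effect of KD on Kdm2b differed between stages, with a difference of 2.86 on the log2 scale between blastocysts (1.85) and morulae (-1.06), tested as an interaction (adjusted p = 0.00184 in limma).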

How the results depend on the processing

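Kdm2b in blastocysts and its difference between the stages were called under every alternative run. Calls of single genes lost elsewhere were those of Kdm5b in KD blastocysts, Kdm1a and Kdm2b from control 2-cell embryos to morulae, and Kdm4c and Kdm3a from control morulae to blastocysts, and the causes were not tested. Of the 10 genes' log2 fold changes, 766 alternative values kept their direction and their side of the threshold, 14 were no longer called, 4 became called and 23 changed sign, none of the last called. With no filter, which tests more genes, 412 genes were called in KD morulae and 988 for the difference between stages, and 1 demethylase gene was called higher in KD blastocysts, with Kdm5b lost. With TPM, 1 was called higher from control 2-cell embryos to morulae. With low and high replicate numbers treated as batches, 1 was called higher in KD morulae (Kdm5b, 0.49, adjusted p = 0.0245 in limma). Leaving out each library gave 0 to 3 called genes in 2-cell embryos, 551 to 1744 in morulae and 962 to 1722 for the difference between stages. Without 2-cell KD replicate 1 there were 3 and without 2-cell control replicate 2 there was 1, and in morulae 910 and 855 without control replicates 7 and 8, 579 and 551 without KD replicates 1 and 2, and 962 for the difference without morula KD replicate 1. The demethylase genes called lower in KD morulae ranged from 0 to 1 and those called higher in KD blastocysts from 1 to 2.

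Signs changed for values near 0. In 2-cell KD, Kdm4a (0.011) was -0.037 as deposited, -0.071 with TPM and -0.071 to 0.11 with a library left out, over which Kdm4c (-0.070) ran from -0.15 to 0.064 and Kdm2b (-0.26) from -0.52 to 0.12. In KD morulae Kdm1a (0.079) was -0.031 as deposited, -0.085 with TPM and -0.015 to 0.13 with a library left out, Kdm5a (0.096) was -0.012 as deposited and -0.065 with TPM, and Kdm6b (-0.043) ran from -0.15 to 0.089 with a library left out. In KD blastocysts Kdm4c (-0.090) ran from -0.24 to 0.066 in this way, and from control morulae to blastocysts Kdm1b (-0.096) ran from -0.15 to 0.0091. For the difference between stages, Kdm3a (-0.24) was 0.055 with TPM, and with a library left out Kdm1a (0.22) ran from -0.047 to 0.38 and Kdm1b (0.061) from -0.036 to 0.19. Factors divided by their geometric mean, a setting chosen after seeing the data, gave 0, 1459, 4321, 11374, 6686 and 1493 called genes in the order of the comparisons and changed no call of the 10 genes.

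Replicate numbers were shared between control and KD libraries, and deviations went partly with the range of the numbers. In morulae they correlated at 0.094 to 0.181 between replicates 1 and 2 of both groups and at 0.185 and 0.347 between control replicates 7 and 8 and KD replicate 6, and at -0.278 to -0.095 across these sets. In 2-cell embryos control replicates 1 and 2 correlated with KD replicate 1 at 0.209 and 0.205 and control replicates 4 and 5 with KD replicate 4 at 0.214 and 0.163, the other pairs of these libraries ran from -0.237 to -0.168, and KD replicate 2 was near 0 with all (-0.021 to 0.015). In blastocysts same-numbered pairs ran from -0.111 to 0.354 and the others from -0.381 to 0.401, the highest being control replicate 1 with KD replicate 4. The term for low and high numbers gave 0, 2038 and 4520 called genes at the 3 stages, against 0, 1458 and 4321. With the replicate block, 0, 1624 and 4571 genes were called at the 3 stages. In morulae, with 1 residual degree of freedom, the block gave 1 demethylase gene higher (Kdm4c, 1.07, adjusted p = 0.0013 in limma) and 1 lower (Kdm2b, -0.97, adjusted p = 0.00283), and Kdm6b was 0.085. From control 2-cell embryos to morulae the block gave 10854 genes, and Kdm1a was not called (0.72, adjusted p = 0.0514 in limma). Control morulae and blastocysts share 1 number, so no block was fitted there, nor for the difference between stages. Relative depth was lowest in a control blastocyst library (14.8, replicate 4), and low levels such as those of Kdm4a and Kdm4b are the least precise.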
